A study of Mus musculus with 29 samples.

Results

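Monomethylated lysine 4 of histone H3 (H3K4me1) was compared between macrophage cells treated with lipopolysaccharide (LPS) for 1 h and for 4 h. The regions are the peaks of the deposited H3K4me1 lists of these times on chromosomes 1 to 19 and X, 65590 peaks at 1 h and 73217 at 4 h. Together they are 138807 of the 1190714 peaks in the 26 peak lists of the study. A 4 h peak that shares no base with the 1 h list is called new, a 1 h peak that shares no base with the 4 h list is called gone, and all other peaks are called kept. A peak is promoter-flank when an H3K4me3 peak of the same time lies within 2 kb, and distal otherwise.

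The cells were RAW 264.7, a mouse macrophage line transformed by Abelson murine leukemia virus, so the groups are treatments of a single transformed line. Chromatin immunoprecipitation and sequencing was done on formaldehyde-crosslinked cells that were untreated, treated with 100 ng/ml LPS for 1 h or for 4 h, or treated with flavopiridol for 1 h with or without LPS for 4 h afterwards. Of the 29 samples, 26 have a peak list, covering 7 histone marks and the transcription factor PU.1, the last in untreated cells. Each mark and condition is 1 library, so no comparison below has replicates or a test. The 95% intervals given are Wilson intervals that treat each peak as 1 draw, and they cover counting error only. Neighbouring peaks share a library and are not independent, and differences of sequencing depth or of immunoprecipitation between the libraries cannot be told apart from differences between the times.

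H3K4me1 marks enhancers, DNA elements that raise transcription of genes at a distance, and the edges of promoters, whose centres carry H3K4me3. An enhancer with H3K4me1 alone is often called primed, with H3K27ac active, and with H3K27me3 poised. LPS comes from the outer membrane of Gram-negative bacteria and is sensed through Toll-like receptor 4, and it is known to add H3K4me1 and H3K27ac at some sites that carried neither mark before, called latent enhancers. PU.1 is the lineage factor that binds many macrophage enhancers, and flavopiridol is an inhibitor of the kinase that releases paused RNA polymerase II into elongation.

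The 4 h list was longer and covered more of the genome than the 1 h list. Covered length was 176 Mb at 1 h and 200.4 Mb at 4 h, a difference of 24.1 Mb, and the untreated list, with 65547 peaks, covered 192 Mb. H3K4me1 length was thus lowest at 1 h among these 3 libraries. The median peak was 1629 bp wide at 1 h and 1615 bp at 4 h. Similar medians came with unlike makeup, since narrow new peaks and wider kept peaks were both more frequent at 4 h. The excess lay on every chromosome tested: the ratio of covered length, 4 h over 1 h, was between 1.12 on chromosome X and 1.15 on chromosome 16.

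New peaks outnumbered gone peaks. Of the 4 h peaks, 12031 were new, which is 16.4% (95% interval 16.2 to 16.7%), and of the 1 h peaks 2956 were gone, which is 4.51% (4.35 to 4.67%). By chromosome the new share was 14.9 to 19.7% and the gone share 3.73 to 5.71%, so that the lowest new share was above the highest gone share. All chromosomes share the same 2 libraries, so these ranges, like that of covered length above, are not repeats of the comparison. When the 65590 widest peaks of each time were compared, to remove the difference in list length, 7299 were new and 5656 gone, so the order stayed and the excess was much smaller. With a −log10 q of at least 5 required at both times, 21177 were new and 13662 gone. The deposited q values of the same peak agreed poorly between the times (Spearman rho 0.128 over 55612 pairs of peaks, against 0.888 for width), so intervals were used for the comparisons that follow. Whether the deposited q values stand on the lines of their own peaks was not tested, and if they do not, the counts under this threshold come from an arbitrary set of peaks.

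New and gone peaks were narrow. The median width was 625 bp for new peaks and 1953 bp for kept peaks at 4 h, and it was 515.5 bp for gone peaks and 1717 bp for kept peaks at 1 h. The narrowest peak in each list was 351 bp at 1 h and 338 bp at 4 h, so many new and gone peaks were close to the least width listed. Among 4 h peaks under 500 bp, 3975 of 6138 (64.8%) were new, and among those of at least 5000 bp 4 of 9637 (0.0415%) were. Of 1 h peaks under 500 bp 27.1% were gone, and of those of at least 5000 bp 1 of 8400 was. Wide H3K4me1 regions were therefore listed at both times almost without exception. New peaks lay a median of 6496 bp from the nearest kept peak, and 12.9% lay within 2 kb of one. Gone peaks were much the same, at 6382 bp, while kept peaks of 4 h lay 3677 bp from the next kept peak.

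Distal peaks were new more often than promoter-flank peaks. At 1 h 22698 peaks (34.6%) were promoter-flank and at 4 h 23931 (32.7%). At 4 h, 10973 of 49286 distal peaks were new (22.3%, 21.9 to 22.6%), against 1058 of 23931 promoter-flank peaks (4.42%, 4.17 to 4.69%). The order was the same for gone peaks, with 2582 of 42892 distal peaks (6.02%, 5.80 to 6.25%) and 374 of 22698 promoter-flank peaks (1.65%, 1.49 to 1.82%). Promoter-flank peaks were also wider, with a median of 2858 bp at 4 h against 1296 bp for distal peaks.

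Within a width class the distal share of new peaks was still the higher one. Under 500 bp it was 68.3% distal and 41.4% promoter-flank, between 500 and 1000 bp 37.6% and 13.9%, between 1000 and 2000 bp 12.4% and 5.49%, and between 2000 and 5000 bp 3.52% and 0.588%. For gone peaks the classes were closer in percentage points, with the distal share again the higher. Under 500 bp the gone shares were 29.0% distal and 17.8% promoter-flank, and between 500 and 1000 bp 9.66% and 4.56%. Between 1000 and 2000 bp they were 1.64% and 1.43%, and between 2000 and 5000 bp 0.286% and 0.131%. By distance, the low new share sat with peaks that overlap H3K4me3 itself, which were also the wider ones. Only 3.59% of the 4 h peaks that overlapped an H3K4me3 peak (median width 2958 bp) were new. Among the 1040 that lay within 2 kb without touching one (median width 1097 bp), 22.7% were new. From 2 to 5 kb the new share was 19.1%, from 5 to 20 kb 20.2%, from 20 to 100 kb 23.0%, and beyond 100 kb 29.8%. Peaks over 100 kb from H3K4me3 were also the narrowest, with a median of 1087 bp. These distance classes were not matched for width, and the part of width in their shares was not tested.

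**Figure D1:**
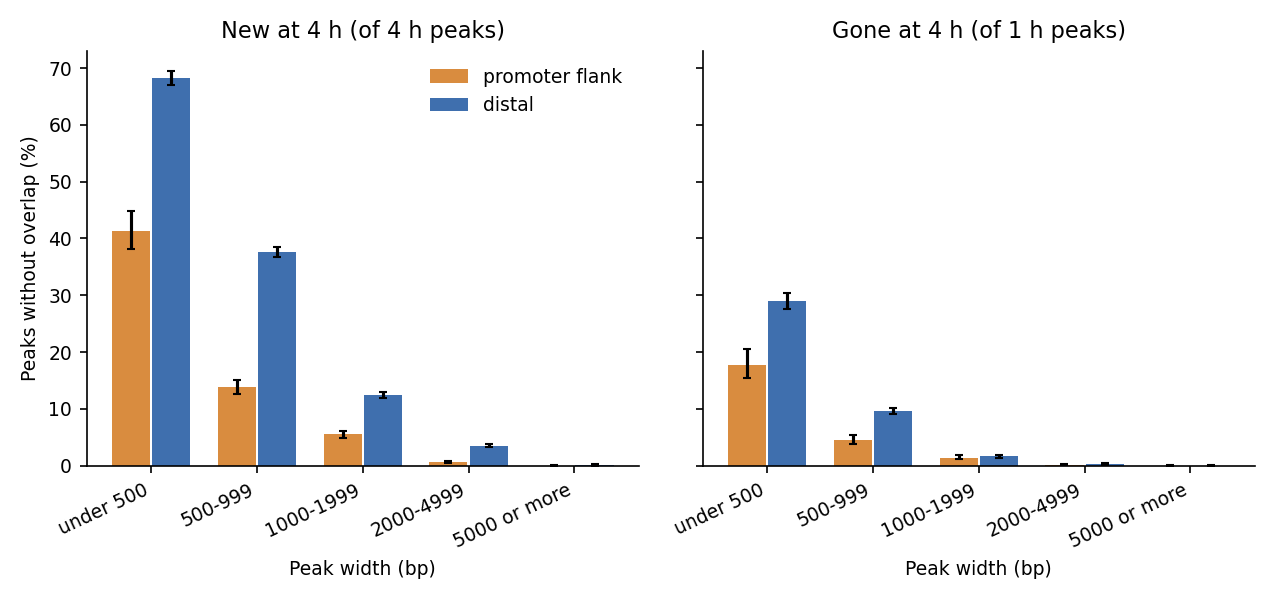
Share of peaks without overlap in the other list (y axis, percent) by peak width (x axis, bp), for promoter-flank and distal peaks, with new peaks of the 4 h list on the left and gone peaks of the 1 h list on the right. Bars are shares and lines are 95% Wilson intervals, and distal bars are higher than promoter-flank bars in each class under 5000 bp, with overlapping intervals for gone peaks of 1000 to 2000 bp and of 2000 to 5000 bp.

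Most of the added H3K4me1 length lay beside regions listed at 1 h and not in new peaks. The lists shared 163 Mb. Of the 37.7 Mb covered at 4 h only, new peaks held 9.59 Mb (25.4%) and the surroundings of kept H3K4me1 held 28.1 Mb (74.6%). Of the 13.7 Mb covered at 1 h only, gone peaks held 1.89 Mb (13.9%) and the rest lay beside shared length. Counts of new peaks thus describe the smaller share of the difference in length.

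Some neighbouring peaks of 1 h were a single peak at 4 h. There were 2726 peaks of 4 h that each spanned at least 2 peaks of 1 h, 5708 of them in all, and the bridged gaps made up 5.69 Mb of the length listed at 4 h only. The reverse, a 1 h peak that spanned several 4 h peaks, was found 1495 times. Joined peaks were wide (median 7644.5 bp) and 65.7% were promoter-flank. The share of them with H3K27ac was 79.1% at 1 h and 86.3% at 4 h, while for the reverse joins it was 77.8 and 80.5% and for the pairs described next 41.8 and 49.4%. Joined peaks thus had H3K27ac often at both times, and the difference between the times was about that of other peaks. The smallest gap between neighbouring peaks was 1405 bp in the 1 h list and 1353 bp in the 4 h list. Its part in the counts of joined peaks was not tested.

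Peaks that overlapped a single partner, and whose partner overlapped no other, were compared for width in 55612 pairs. The 4 h peak was the wider in 64.5% of pairs. Over all pairs, the median of the width at 4 h minus that at 1 h was 120 bp, and the median log2 width ratio (4 h over 1 h) was 0.08. At least 1.5 times wider at 4 h were 8306 pairs (14.9%), and at least 1.5 times narrower were 2581 (4.64%). The width difference was therefore a small shift of most pairs with a longer tail toward wider peaks at 4 h.

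Distal pairs had the longer tail. Among 35395 pairs that were distal at both times, the median width was 1331 bp at 1 h and 1523 bp at 4 h, the median log2 ratio was 0.11, and 6160 (17.4%) were at least 1.5 times wider while 1892 (5.35%) were as much narrower. Among 18250 promoter-flank pairs the medians were 2544 and 2768 bp, the log2 ratio was 0.05, and 10.4% were wider and 3.501% narrower. The difference in base pairs was similar, with a median of 123 bp in distal and 111 bp in promoter-flank pairs. Ordered by the geometric mean of both widths, which favours neither time, the median log2 ratio of distal pairs was 0.06 under 500 bp, 0.21 from 500 to 1000 bp, 0.13 from 1000 to 2000 bp, 0.08 from 2000 to 5000 bp and 0.04 above. For promoter-flank pairs it was 0.12, 0.14, 0.11, 0.06 and 0.02 in the same order. From 500 bp up the distal ratio was thus the higher in each class, and under 500 bp the promoter-flank one was.

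Most distal pairs did not extend at both ends. Among all distal pairs both edges lay farther out at 4 h in 37.8%, a single edge in 46.4% and neither in 15.8%. Among the distal pairs at least 1.5 times wider, both edges lay farther out in 75.6%. Few pairs passed from 1 class to the other: 1317 (2.37%) were distal at 1 h and promoter-flank at 4 h, and 650 (1.17%) the reverse. Where H3K4me3 lay on 1 side of a pair without touching it, in 418 pairs, the median shift was 6.5 bp on the side facing H3K4me3 and 43 bp on the far side. Pairs that touched H3K4me3 were left out, which can limit the shift on the facing side, and its part was not tested.

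H3K27ac, the mark of active enhancers, when listed at 4 h went with a higher width ratio among distal pairs of like width at 1 h. Since a wider 4 h peak has more room to meet another peak, the marks of both times were read over the interval of the 1 h peak, which does not depend on the width at 4 h. Distal pairs with H3K27ac there at 4 h only numbered 3738, with a median width of 1669.5 bp at 1 h and 2093.5 bp at 4 h, a median log2 ratio of 0.18, and 22.8% at least 1.5 times wider. The 673 pairs with H3K27ac at 1 h only had medians of 1950 and 2054 bp, a log2 ratio of 0.03 and 9.81% wider. Pairs with H3K27ac at both times (6491) had a log2 ratio of 0.07, with 8.03% at least 1.5 times wider. Pairs at neither time (24493) had a ratio of 0.12, with 19.3% wider, but they were much narrower at 1 h (1060 bp against 2883 bp). Most of the distal pairs at least 1.5 times wider, 4720 of 6160, thus had H3K27ac at neither time. Among pairs of 1000 to 2000 bp at 1 h the log2 ratio was 0.22 with H3K27ac at 4 h only, 0.04 at 1 h only, 0.17 at both times and 0.05 at neither. From 500 to 1000 bp it was 0.61, 0.36, 0.56 and 0.23 in the same order, and from 2000 to 5000 bp 0.07, 0.01, 0.06 and 0.01. In these classes the ratio was higher with H3K27ac at 4 h than without it, whether or not the mark was listed at 1 h. Over all widths the ratio was lower with H3K27ac at both times than at neither. The classes were cut on the 1 h width, which also enters the ratio, and not on the geometric mean. The part of this choice in the order within classes was not tested.

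Between pairs with the mark at 4 h only and at 1 h only, the other histone marks separated the distal pairs less than H3K27ac did. For H3K36me2, which spreads over active chromatin, the log2 ratio was 0.17 with the mark at 4 h only and 0.13 at 1 h only. For H3K79me2 and H3K36me3, marks of transcribed gene bodies, it was 0.14 at 4 h only for each, and 0.05 and 0.10 at 1 h only. For H3K27me3, the Polycomb mark of repressed genes, the values were 0.14 and 0.12. Pairs with a PU.1 peak of untreated cells in the 1 h interval had a ratio of 0.07 (22579 pairs, median 1633 bp at 1 h). Those without one had a ratio of 0.21 (12816 pairs, 960 bp). At least 1.5 times wider were 12.2% with PU.1 and 26.5% without it. The pairs without PU.1 were thus both narrower at 1 h and wider at 4 h relative to the 1 h width.

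**Figure D2:**
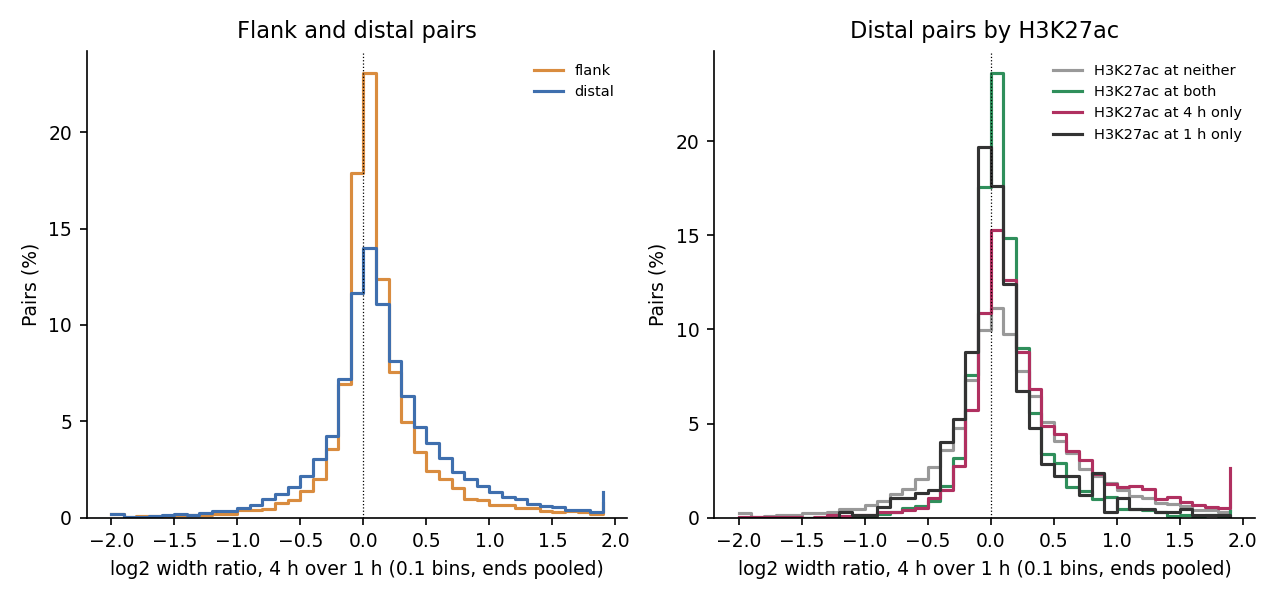
Distribution of the log2 width ratio, 4 h over 1 h (x axis, bins of equal size, values beyond the ends pooled into the end bins), as percent of pairs (y axis), for promoter-flank and distal pairs on the left and for distal pairs by H3K27ac over the extent of either peak on the right. The dotted line marks equal width, and the distal pairs with H3K27ac at 4 h only (median 0.18) reach farther right than those with H3K27ac at 1 h only (median 0.03).

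Counted by length, the ratio of H3K27ac between the times was highest over the H3K4me1 length that was listed at 4 h only. In new peaks 1.54% of the length lay within H3K27ac peaks before treatment, 1.86% at 1 h and 9.22% at 4 h, a ratio of 4.95 between the later times. In the 4 h only length beside shared H3K4me1 the values were 8.47, 8.68 and 15.8%, a ratio of 1.82. Over the shared length they were 40.8, 34.7 and 42.6%, a ratio of 1.23. In percentage points the differences were alike, 7.36 in new peaks, 7.14 beside shared length and 7.82 over shared length. The H3K27ac list itself held 34788 peaks at 4 h and 28869 at 1 h. The length listed at 1 h only stayed near its earlier level, with a ratio of 1.10 beside shared length and 1.12 in gone peaks. The ratios of the other marks were lower: over new peaks the ratio was 1.27 for H3K4me3, 1.09 for H3K36me2, 1.07 for H3K27me3, 1.06 for H3K79me2 and 0.99 for H3K36me3.

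**Figure D3:**
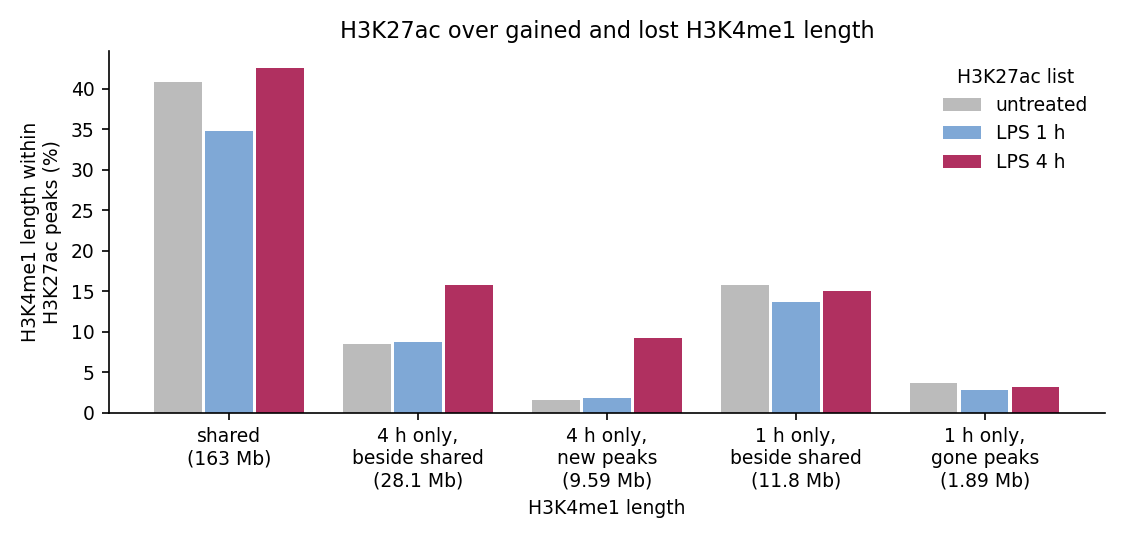
Percent of H3K4me1 length that lies within H3K27ac peaks (y axis) for the length shared by the times and the length listed at 1 time only (x axis, with its total in Mb), with a bar for each H3K27ac list. The 4 h bar stands apart from the other bars of its set in the length listed at 4 h only, 9.22% against 1.86% at 1 h in new peaks and 15.8% against 8.68% beside shared length.

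Most new distal peaks nevertheless carried no H3K27ac. H3K27ac overlapped 69 of the 10973 new distal peaks before treatment (0.629%), 110 at 1 h (1.00%) and 847 at 4 h (7.72%). For kept distal peaks the values were 27.3, 21.9 and 30.7%, and 10.6% at 4 h after weighting the kept peaks to the widths of the new ones. The new distal peaks were thus still below kept peaks of like width at 4 h, but nearer to them than at 1 h (1.00% against a weighted 6.93%). New peaks are chosen for having no H3K4me1 listed at 1 h, and the part of that choice in the low 1 h share was not tested. By peak, 762 new distal peaks had H3K27ac at 4 h only, 25 at 1 h only, 85 at both times and 10101 at neither. Gone distal peaks showed no such pattern, with 0.620% at 1 h and 0.813% at 4 h.

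The 762 new distal peaks with H3K27ac at 4 h only were set apart from the other new distal peaks in several ways. They were wider: their median was 1140 bp, and that of the 10101 with H3K27ac at neither time was 604 bp. In spite of that width, 14.6% overlapped a PU.1 peak of untreated cells, against 23.6%. Fewer were found in the H3K4me1 list of cells given flavopiridol before LPS for 4 h, 12.6% against 21.4%. Among kept distal peaks with H3K27ac at 4 h only (4098 peaks, median 2172 bp) the same shares were 70.5% for PU.1 and 69.3% for the flavopiridol list.

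PU.1 was less frequent at new than at kept peaks. In untreated cells PU.1 overlapped 23.0% of new distal peaks, 65.1% of kept distal peaks, and 48.9% of the kept ones weighted by width. Gone distal peaks stood between, at 32.5% against 44.3% after weighting. A PU.1 list after LPS was not used here, so these values describe where PU.1 lay before treatment.

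H3K27me3 was more frequent at new and gone peaks than at kept peaks. It overlapped 27.9% of new distal peaks before treatment, 27.7% at 1 h and 30.4% at 4 h, against 20.2% of kept distal peaks at 4 h and 22.1% after weighting. At promoter-flank new peaks the share was 40.6% at 4 h, against 16.4% and a weighted 18.8%. Of the 3339 new distal peaks with H3K27me3 at 4 h, 2768 also had it at 1 h, so these H3K4me1 peaks were listed on H3K27me3 that was there before. H3K36me2 went the other way, with 33.3% of new distal peaks at 4 h, 59.4% of kept ones and 45.7% after weighting. For H3K36me3 and H3K79me2 the new distal peaks, at 19.9% and 8.46%, were close to the weighted kept peaks, at 21.3% and 8.19%.

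By combination of marks at 4 h, the most frequent kind of new distal peak carried H3K27me3 and no other of these marks (3101 peaks, 28.3%), followed by none of them (3034, 27.6%) and H3K36me2 alone (1771, 16.1%). Among kept distal peaks the order was H3K36me2 alone (19.9%), none (15.5%), H3K27me3 alone (15.2%) and H3K27ac with H3K36me2 (12.8%). New distal peaks with H3K27ac alone were few, 222 peaks or 2.02%, and wide for new peaks, with a median of 1189.5 bp. Gone distal peaks had none of the marks in 34.2% and H3K27me3 alone in 24.0%.

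**Figure D4:**
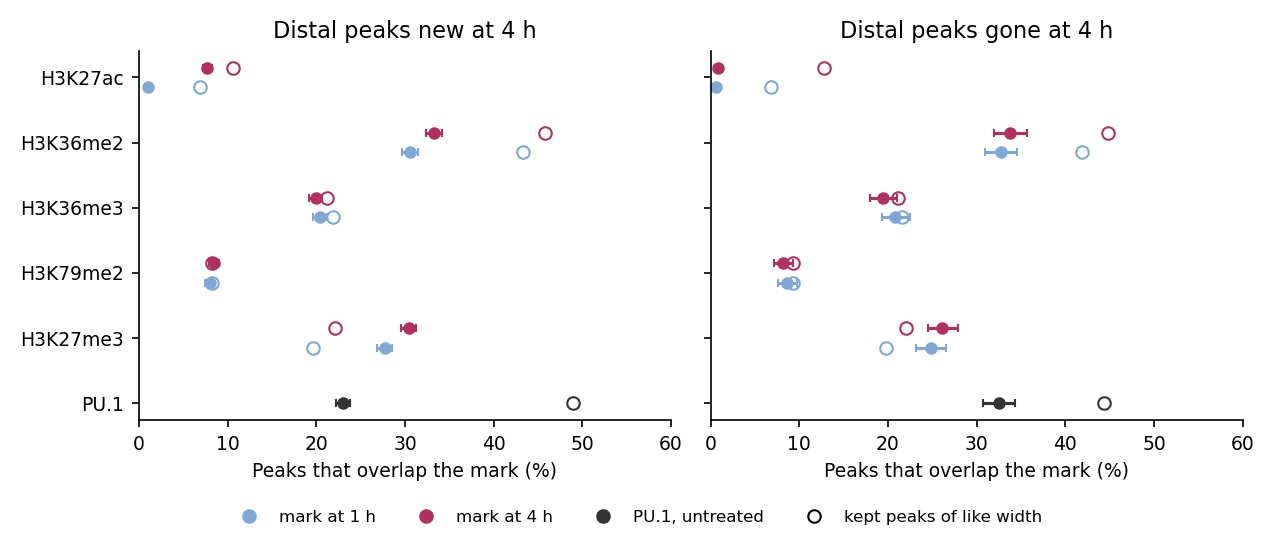
Percent of distal H3K4me1 peaks that overlap each mark or PU.1 (x axis) for new peaks on the left and gone peaks on the right, with the mark taken at 1 h or at 4 h and PU.1 in untreated cells. Filled points are new or gone peaks with 95% Wilson intervals, open points are kept peaks weighted to the same widths, and H3K27ac at new peaks is 1.00% at 1 h and 7.72% at 4 h.

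The untreated list divided the new peaks. Of the 12031 new peaks, 4113 (34.2%) overlapped a peak of untreated cells, so H3K4me1 was listed before LPS and at 4 h and was not listed at 1 h. The other 7918 (65.8%) were absent at both earlier times. Among promoter-flank new peaks the share with an untreated peak was 56.7%, and among distal ones 32.0%, while 94.96% of kept peaks had one. Of the 2956 gone peaks, 1413 (47.8%) had an untreated peak and 1543 were listed at 1 h alone.

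These classes carried other marks to unlike degrees. H3K27ac overlapped the 7918 peaks absent at both earlier times in 1.12% (untreated), 1.72% (1 h) and 9.66% (4 h), and the 4113 with an untreated peak in 7.03, 5.86 and 10.9%. H3K27ac was thus near 0 before 4 h in the former. H3K27me3 at 4 h overlapped 35.6% of the former and 23.2% of the latter, and PU.1 19.03% and 32.2%. The 1543 peaks of 1 h alone were the narrowest class, with a median of 478 bp, and had H3K27ac in 2.40% at 1 h and H3K27me3 in 31.3%.

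In regions found in all 3 libraries the median width was lowest at 1 h. In 48523 regions with a single peak in each list the median width was 1825 bp untreated, 1688 bp at 1 h and 1888 bp at 4 h. A course of narrower at 1 h and then wider at 4 h was seen in 45.9% of them, wider at both steps in 18.3%, wider then narrower in 19.5%, and narrower at both steps in 15.9%. The median log2 ratio of 4 h over untreated was 0.03 in distal and −0.01 in promoter-flank regions, so for the typical region the 4 h width was close to the untreated one. Of 4875 distal regions at least 1.5 times wider at 4 h than at 1 h, 3947 (81.0%) were also wider than in untreated cells and 2193 (45.0%) at least 1.5 times so, with medians of 1095 bp untreated, 783 bp at 1 h and 1687 bp at 4 h. These 4875 regions were picked for a high 4 h width relative to 1 h, which by itself favours a width above the untreated one. Among all 30949 distal regions the median log2 ratio of 4 h over untreated was 0.03. The share of them wider than in untreated cells was not computed. Since the 1 h list enters both steps, a low width at 1 h in that library raises the count of narrower then wider regions, and its part was not tested.

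In cells given flavopiridol for 1 h before LPS for 4 h, 24.0% of new peaks overlapped an H3K4me1 peak, against 74.4% of kept peaks. That list covered 117 Mb in 61841 peaks, less than any other H3K4me1 list, and 4.02% of its peaks had a −log10 q of at least 5 against 53.0% at 4 h. Peaks absent at both earlier times were found in it in 20.3%, and those with an untreated peak in 31.1%. Width mattered for kept peaks, with 32.8% found under 500 bp and 97.5% at 5000 bp or more. For the peaks absent at both earlier times the share was 18.4% under 500 bp, 21.1% from 500 to 1000 bp, 22.0% from 1000 to 2000 bp and 22.0% from 2000 to 5000 bp, so wider peaks of this class were listed little more often. Flavopiridol alone for 1 h gave similar shares for this class, 22.1% over all widths.

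The deposited segmentations, which name 1 of 27 chromatin states for each step of 200 bp, were read over the same peaks. The states carry no names in the sources used here, and each was described by the marks that covered it at 4 h. In new peaks, state 16 (98.1% under H3K4me1) covered 0.642% of the length at 1 h and 12.7% at 4 h. State 27, which carries almost none of the marks, covered 38.2% and 28.5%, and state 19 (H3K27me3 over 98.4%) covered 21.2% and 11.9%. In gone peaks states 16 and 27 went the other way, with state 16 at 7.24% and 1.51% and state 27 at 31.1% and 39.5%, while state 19 was again lower at 4 h, at 14.9% and 12.5%. In kept peaks of 4 h, state 27 covered 6.14% at 1 h and 4.11% at 4 h, and state 19 covered 3.46% and 1.95%. State 19 as a whole covered 344 Mb at 1 h and 261 Mb at 4 h. Lower shares of these states at 4 h were thus not particular to new peaks. The step from state 27 to state 16 was the most frequent change of state in new peaks, with 4146 of 59930 steps (6.92%). States with H3K4me1 over at least 50% of their length held 26.6% of the length of new peaks at 4 h and 67.2% of that of kept peaks, so most length of new peaks was not assigned to a state with H3K4me1 although it was listed as a peak. The segmentation includes the libraries of these lists, so it is no independent measurement.

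Regions are given on the mm9 build, as in the deposited lists, with start and end counted from 1. No annotation of this build was used here, so no region is assigned to a gene, exon or intron. The widest new distal peak was chr15:6627333-6636939 (9607 bp), where H3K27me3 covered 100% at 1 h and 86.1% at 4 h and H3K27ac covered 20.8% at 4 h. The next was chr5:32732165-32738344 (6180 bp), where H3K27me3 covered 87.8% at 1 h and 88.8% at 4 h and H3K27ac covered 0% and 81.2%. These 2 peaks were listed on H3K27me3 at both times.

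The other wide new distal peaks carried H3K27ac over their full length at 4 h and no H3K27me3 at that time. At chr7:142023936-142029567 (5632 bp) H3K27ac covered 0% untreated, 55.1% at 1 h and 100% at 4 h. At chr2:144537762-144542412 (4651 bp) it covered 0, 43.3 and 100%, and H3K36me2 covered 100% throughout. At chr12:120344291-120349202 (4912 bp) H3K27ac covered 0% at 1 h and 100% at 4 h, and H3K36me2 covered 4.05% untreated, 37.8% at 1 h and 56.9% at 4 h. In the first and second of these H3K27ac was listed at 1 h and H3K4me1 was not, though H3K4me1 of untreated cells covered 22.3% of the first. None of the 5 widest new distal peaks overlapped the H3K4me1 list of flavopiridol with LPS.

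The widest new promoter-flank peak was chr16:55812597-55818585 (5989 bp), where H3K4me3 covered 0% at 1 h and 59.1% at 4 h and H3K27ac 72.1% and 100%. At chr15:8916375-8920951 (4577 bp) H3K27me3 covered 100% at all times, with H3K4me3 over 40.7% at 1 h and 25.3% at 4 h. The second widest was chr8:127534577-127539407 (4831 bp), with H3K4me3 over 35.3% at 1 h and 35.7% at 4 h. These 3 peaks differed from each other in their marks.

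Among the peaks gone at 4 h, 3 of those named by width lay together on chromosome 2, at chr2:166890201-166893658 (3458 bp, promoter-flank), chr2:166903752-166907543 (3792 bp, distal) and chr2:166917801-166920999 (3199 bp, distal). Untreated H3K4me1 covered 100, 56.2 and 100% of them, and the flavopiridol with LPS list 82.3, 75.4 and 79.0%. These 3 stretches were thus listed in the untreated, 1 h and flavopiridol with LPS libraries and not in the 4 h library. The widest gone distal peaks elsewhere were chr8:34853612-34857274 (3663 bp), chr4:131942177-131945254 (3078 bp) and chr16:75826708-75829560 (2853 bp), all without H3K27ac at any of the 3 times. The widest gone promoter-flank peak was chr11:3192661-3198749 (6089 bp), with H3K27ac over 51.9% at 1 h and 43.8% at 4 h. At chr9:89097757-89101193 (3437 bp) H3K4me3 covered 15.6% untreated, 52.0% at 1 h and 99.3% at 4 h, so at 4 h this stretch was listed for H3K4me3 and not for H3K4me1.

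In the 5 distal pairs with the most bases added, H3K27ac of 4 h covered between 48.3 and 100% of the 4 h peak. At chr16:84640840-84648876 the peak was 532 bp at 1 h and 8037 bp at 4 h, and H3K27ac covered 0% at 1 h and 100% at 4 h. At chr5:4528348-4537927 the widths were 2064 and 9580 bp and H3K27ac covered 25.3 and 79.4%. At chr9:83509700-83516453 the widths were 364 and 6754 bp, with H3K27ac over 0 and 64.5% and H3K27me3 over 42.0 and 61.3%. In these 3 pairs the 4 h peak was more than 4 times the width at 1 h. At chr7:136667926-136675916 the widths were 1733 and 7991 bp, and H3K27me3 covered 80.5% untreated, 18.02% at 1 h and 5.97% at 4 h while H3K27ac covered 0, 4.22 and 48.3%. The most bases, 7655, were added at chr13:63800171-63810975 (3150 bp to 10805 bp), where H3K27ac covered 39.7% at 1 h and 49.5% at 4 h. The 3 pairs with the most bases removed had no H3K27ac at any time: chr5:20422221-20428124 (5904 bp to 2523 bp), chr11:80211318-80216424 (5107 bp to 1900 bp) and chr1:146075380-146079185 (3806 bp to 803 bp).

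In windows of 100 kb the added length was spread widely and was concentrated in some places. Of 14214 windows with H3K4me1, 11248 (79.1%) had more of it at 4 h and 2960 (20.8%) had less, with a median difference of 1003.5 bp. At least 5000 bp were added in 1348 windows and removed in 11. Of those 1348, 88.6% (86.8 to 90.2%) had more H3K27ac length at 4 h, with a median of 2835.5 bp added, against 53.7% (52.8 to 54.6%) and 135 bp in the windows with a smaller difference. For H3K36me2 the shares were 73.9 and 54.2%, and for H3K27me3 56.7 and 62.5%. H3K27ac and, less so, H3K36me2 were therefore longer at 4 h more often in the windows with much added H3K4me1, and H3K27me3 was not. These sets of windows were not matched for the length of H3K4me1 or of the other mark. Windows without the mark at either time count as not longer.

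The window with the most H3K4me1 added was chr19:34400001-34500000, with 28267 bp at 1 h and 53933 bp at 4 h. H3K27ac covered 6.18% of it untreated, 5.66% at 1 h and 58.1% at 4 h, and the H3K4me1 list of flavopiridol with LPS covered 9.83%. Of the 25666 bp of H3K4me1 listed at 4 h only, 94.5% lay within H3K27ac of 4 h. Of the 52394 bp of H3K27ac listed at 4 h only, 46.3% lay on that added H3K4me1 and 39.5% on H3K4me1 already listed at 1 h, so the map of this window shows more H3K27ac than H3K4me1 added. The next windows were chr16:84600001-84700000 (11737 bp to 36387 bp) and chr16:24700001-24800000 (25837 bp to 50146 bp), with H3K27ac over 12.2 and 8.45% at 1 h and 38.4 and 39.6% at 4 h. At chr2:102500001-102600000 H3K4me1 was 26347 and 49432 bp and H3K27ac 10.7 and 38.9%. At chr16:38300001-38400000, a window with H3K27me3 over 59.9% at 1 h and 59.3% at 4 h, H3K4me1 was 22083 and 42159 bp and H3K27ac 21.0 and 25.8%. The first 4 of these windows thus had more than 2 times the H3K27ac length at 4 h, and the last did not.

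Windows with less length at 4 h differed by less. The most was removed at chr9:25300001-25400000 (56966 bp to 47501 bp), chr14:63700001-63800000 (57457 bp to 48266 bp) and chr2:166900001-167000000 (14697 bp to 5623 bp). The last holds 4 gone peaks, among them the 2 distal ones named above.

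**Figure D5:**
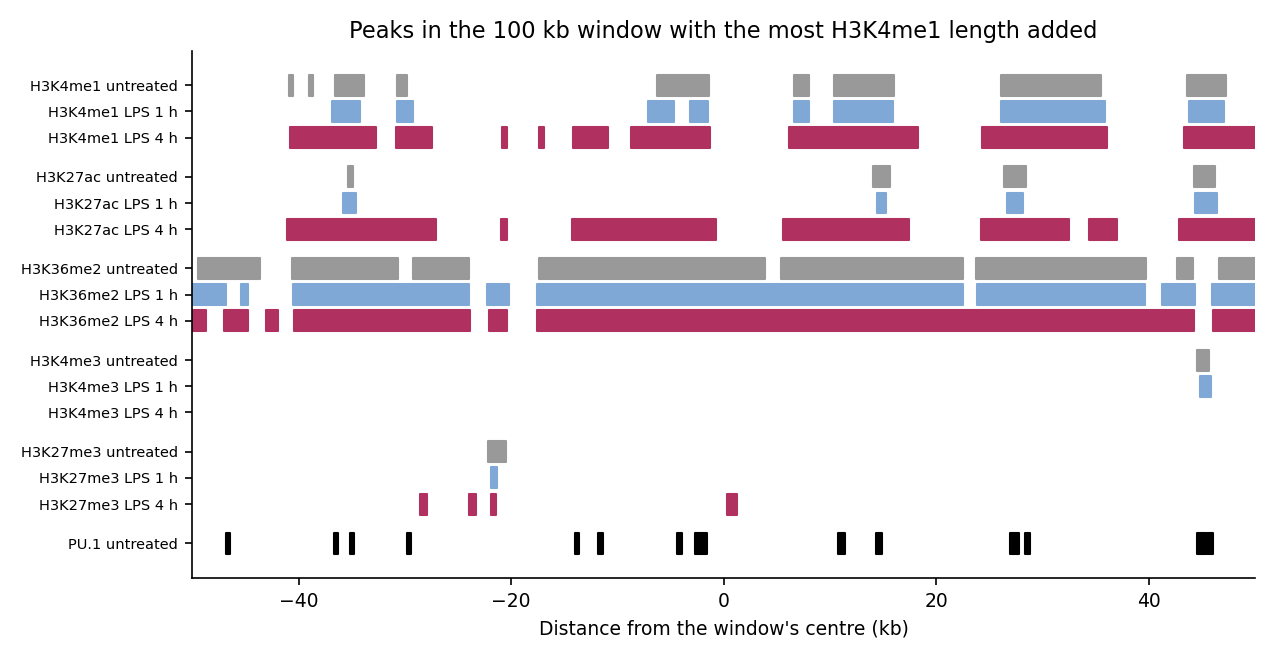
Peaks of 5 histone marks without LPS and after 1 h or 4 h of it, and of PU.1 in untreated cells, in the 100 kb window with the most H3K4me1 length added (x axis, kb from its centre, 1 line for each list). H3K4me1 (28267 bp at 1 h, 53933 bp at 4 h) and H3K27ac (5.66% of the window at 1 h, 58.1% at 4 h) both cover more at 4 h, and part of the added H3K27ac lies on H3K4me1 of 1 h.

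The step before and a second mark over the same step give a scale for these values. From untreated cells to 1 h, a comparison that shares the 1 h list, 4767 H3K4me1 peaks (7.27% of the 1 h list) were new and 7006 (10.7% of the untreated list) were gone. In that step 6.02% of 53373 pairs were at least 1.5 times wider and 12.0% as much narrower, the opposite order of the later step. For H3K27ac from 1 h to 4 h, 8123 peaks (23.4%) were new and 1321 (4.58%) were gone, and 18.96% of 24752 pairs were wider and 5.48% narrower. More new than gone peaks from 1 h to 4 h were thus listed for both marks, which are separate immunoprecipitations, and whether the 1 h chromatin or libraries stand apart was not tested.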

How the data were processed

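Chromatin immunoprecipitation and sequencing of RAW 264.7 cells was compared at LPS 1 h and 4 h, 1 library each. The submitters' processing notes name Bowtie 1.0.1, MACS2 and the mm9 build. MACS2 settings and version, control library, pooling, segmentation tool and read numbers, all not given in the sources used, cannot be stated. Depth is therefore unknown, and no precision beyond counting can be stated. The fold enrichment of a peak is a ratio that the authors deposited, and it was used to compare lists by rank only. The −log10 p and −log10 q are also the authors' deposited values, and −log10 q served for 1 alternative. The authors deposited the chromatin states as interval names.

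Intervals on chromosomes 1 to 19 and X were compared with an overlap of at least 1 bp in Python 3.11.15 with numpy 2.4.6 and pandas 2.3.3, checked on simulated lists. PU.1 lines that overlap were merged. Kept peaks were weighted to the widths of new or gone peaks in 5 classes with equal numbers of the latter. For width ratios, marks were read over the 1 h peak, a choice made after seeing the data. Named regions are the 5 widest distal new and gone peaks, the 3 widest promoter-flank ones, the 5 distal pairs and 5 windows with most bases added, and the 3 with most removed. The comparison, the regions' rule and the alternatives were chosen with earlier results of these data known. Alternatives were a minimum width of 1 kb, a −log10 q of at least 5, equal list lengths, 50% overlap, merging within 1 kb or 3 kb, all sequences, and other promoter-flank distances. Gene lists and sequences need an mm9 annotation and genome, which were not used here.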

Additional observations from a re-analysis of the deposited data

How the results depend on the processing

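No paired analysis was possible because each condition is 1 library. New peaks outnumbered gone peaks, distal shares exceeded promoter-flank shares, the median log2 width ratio was above 0 and covered length was larger at 4 h under every alternative run. Of 99 values recomputed for 20 results, none reversed, 35 stayed within 1.5 times (counts and length) or within the 95% interval of the reported value (shares and ratios), and 64 did not. The cause of these shifts was not tested. The 35 include every value from merging within 1 kb and from the use of all sequences. The smallest gap between peaks was 1353 bp, so merging within 1 kb left the lists unchanged, with 12031 new peaks as reported. With all sequences 12033 of 73230 peaks were new, against 12031 of 73217. Agreement under these alternatives was therefore fixed in advance and is no sign that the results are stable. Depth is unknown and sets a limit that cannot be given.

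With peaks of at least 1 kb, the new share was 7.66% for promoter-flank peaks, the gone shares were 3.21% (promoter-flank) and 6.92% (distal), and the log2 ratio was 0.0604. With −log10 q of at least 5, 21177 peaks were new and 13662 gone, the new shares were 45.5 and 59.4% (promoter-flank, distal), the gone shares 38.3 and 45.9%, and the log2 ratio 0.0771 (reported 0.0818). With equal numbers of the widest peaks the values were 7299 and 5656 peaks, 2.93 and 15.5%, 4.06 and 11.0%, and 0.0911. With 50% of the peak covered, 17252 were new and 4901 gone, with 10.4 and 30.0%, 4.02 and 9.30%, and 0.0647. No peaks lie within 1 kb of each other, so merging at 1 kb left all values as they were. Merging within 3 kb, an alternative added after seeing the data, gave new shares of 3.31 and 21.9%, a gone share of 1.30% for promoter-flank peaks and a log2 ratio of 0.0663. With promoter flank by overlap of 1 bp the promoter-flank shares were 3.59% new and 1.43% gone, and within 5 kb 7.19 and 2.36%, with 22.7% of distal peaks new.

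The shares of new and gone peaks with a mark, minus those of kept peaks in percentage points, also kept their sign. They were taken over promoter-flank and distal peaks together. As reported they were −41.5 (new) and −39.6 (gone) for H3K27ac, −32.8 and −32.1 for H3K36me2, −10.1 and −9.59 for H3K36me3, −15.7 and −15.3 for H3K79me2, 12.5 and 10.9 for H3K27me3, and −44.3 and −34.7 for PU.1. With kept peaks weighted by width, in the same order, they were −15.3 and −14.9, −14.4 and −11.7, −0.962 and −0.895, −3.75 and −3.71, 10.04 and 7.44, and −23.5 and −10.8. With −log10 q of at least 5 they were −17.9 and −11.7, −13.4 and −8.88, −4.89 and −3.29, −8.25 and −5.77, 4.36 and 1.99, and −16.5 and −8.51. With peaks of at least 1 kb the values that moved were −39.1 for H3K27ac, −31.2 and −25.5 for H3K36me2, −11.6 for H3K36me3, 9.06 for H3K27me3 in gone peaks, and −38.1 and −25.7 for PU.1. Among distal peaks alone, with kept peaks weighted by width, the differences were not the same. H3K27ac at 4 h overlapped 7.72% of new and 10.6% of kept distal peaks. For H3K79me2 at 4 h the values were 8.46 and 8.19%, so its sign was the other way there.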
